A study of Mus musculus with 27 samples.

Results

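The cartilage collagens IX, XI and XXVII were followed through Col9a1, Col9a2, Col9a3, Col11a1, Col11a2 and Col27a1 as limb bud mesenchymal cells of the mouse differentiated in culture. The members were all probe sets annotated to only 1 gene, with that gene among these 6. A probe set is a group of short probes on an Affymetrix array that are read together, and some probe sets are annotated to several genes. The rule found 11 probe sets of 36701 on the arrays, for 6 genes of 15944. None of the probe sets of these genes was annotated to several genes.

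Mesenchymal samples, labelled multipotential and with no day in their titles, day 1 samples, labelled chondroprogenitors, and day 3 samples, labelled chondroblasts, made 3 groups of 3 RNA samples. The cells of all groups were taken from the subridge region, the limb tissue under its distal edge, and left to form chondrocytes in vitro, with no other agent named. The labels name fibroblasts as the contaminating cells and give the morphology of the cultures as the means of purification, so a group may hold more than 1 kind of cell. The labels name no strain, stage or genotype. Nothing says that the samples came from separate cultures or animals, so the p-values measure only the spread between these RNA samples, which may be technical.

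Collagen IX is built from the chains encoded by Col9a1, Col9a2 and Col9a3 and sits on the surface of cartilage fibrils, where it links them to each other and to other matrix proteins. Collagen XI, from Col11a1 and Col11a2 together with a product of the Col2a1 gene, lies within the fibril and helps to start it and limit its width. Collagen XXVII, from Col27a1, is a fibrillar collagen of cartilage. In chondrocytes the transcription factors SOX9, SOX5 and SOX6 act on enhancers of many of these genes.

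Each RNA sample was hybridised to array types A, B and C, which gave 27 arrays. Signals are MAS5 intensities rescaled to a 2% trimmed mean of 500 on every array, and between 41.9% and 48.1% of probe sets on an array lay below a signal of 200. Probe sets whose group mean reached 200 in at least 1 group were tested. Among chondrocyte genes the single Col2a1 probe set stayed below 200 in every group mean. The summed signal of the 6 chondrocyte markers Acan, Matn1, Cnmd, Hapln1, Col2a1 and Comp was 388 to 823 in mesenchymal samples, 2080 to 3932 at day 1 and 27878 to 45609 at day 3. At day 1 and day 3 most of that sum is Cnmd, with means of 151, 2628 and 35032 at the 3 stages. In mesenchymal samples all 6 markers averaged below 200. Cnmd was the 1 of the 5 tested that rose at day 1 over mesenchymal samples, and all 5 rose at day 3 over day 1. Over all tested genes, with 1 probe set each, 4.78% and 1.78% rose in these comparisons. Acan and Cnmd reached a mean of 200 from day 1 on, and Matn1, Hapln1 and Comp only at day 3. They entered the test only through those later groups, which favours a rise. The 18S ribosomal RNA controls averaged 27447 in mesenchymal replicate 1, 33264 in day 1 replicate 4 and 19946 in day 3 replicate 4, against 1623 to 5631 in the other 6 samples. The 3'/5' ratio of the actin control was 1.07 to 1.30 in all 9 samples.

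Of the 11 collagen probe sets, 10 reached the filter and 1, for Col9a3, did not. At day 1 over mesenchymal samples 8 rose and 2, both for Col11a2, were not called (limma, Benjamini-Hochberg adjusted p under 0.05 over 23545 probe sets), where 3.61% of all tested probe sets rose. Of the 7 whose mesenchymal mean already reached 200, 6 rose. The other 3 tested, 1 each for Col11a1, Col11a2 and Col27a1, entered the test only through their later groups. From day 1 to day 3, 3 of the 11 rose, 1 each for Col9a3, Col11a1 and Col11a2, against 1.13% of all probe sets. At day 3 over mesenchymal samples 10 rose, against 6.54% of all probe sets.

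The log2 changes had a median over the 10 tested collagen probe sets of 2.21 at day 1 over mesenchymal samples, 0.93 at day 3 over day 1 and 3.18 at day 3 over mesenchymal samples. The same medians over all tested probe sets were -0.05, -0.03 and -0.08. With the replicate number as a block in a fit of the day 1 and day 3 samples alone, 5 collagen probe sets rose at day 3 over day 1. Over all probe sets that fit called 1153, against 380 without the block. The labels do not state that same-numbered samples are pairs. These bulk signals cannot tell apart more cells that express a collagen gene and more RNA per cell.

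**Figure D1:**
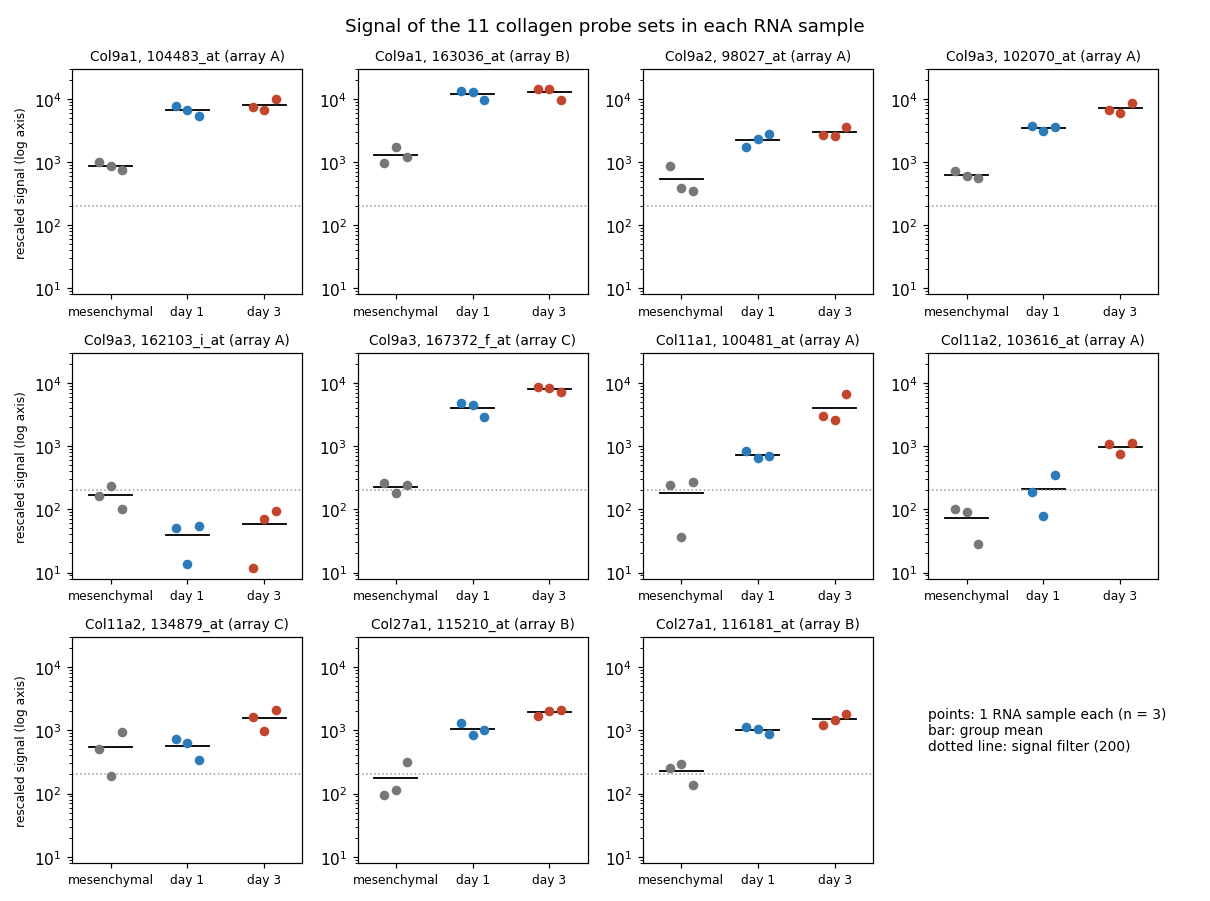
Rescaled signal (log axis) of each of the 11 collagen probe sets in mesenchymal, day 1 and day 3 samples. Points are single RNA samples (3 per group), bars are group means, and the dotted line is the filter at 200. Col9a1 sits at 744 to 1702 in mesenchymal samples and at 5278 to 14187 at day 1 and day 3, while the Col9a3 probe set 162103_i_at has its highest value at 238.

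All 3 collagen IX genes rose at day 1 over mesenchymal samples, and Col9a1 had no call at day 3 over day 1. Col9a1, which encodes the alpha 1 chain, has 2 probe sets, and per-sample values are given for replicates 1, 3 and 4 in that order. On array A (104483_at) its signal was 1011, 874 and 744 in mesenchymal samples, 7793, 6739 and 5278 at day 1, and 7423, 6615 and 9973 at day 3. All day 1 values lay above all mesenchymal values, and the day 3 and day 1 ranges overlapped. The log2 change was 2.84 ± 0.20 (SE, n = 3 per group) at day 1 over mesenchymal samples, with an adjusted p of 6.24e-06, and 0.27 ± 0.20 at day 3 over day 1, with an adjusted p of 0.714.

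On array B (163036_at) Col9a1 had mesenchymal signals of 951, 1702 and 1214, day 1 signals of 13163, 12621 and 9698, and day 3 signals of 14187, 14115 and 9471. Its log2 change was 3.17 ± 0.23 at day 1 over mesenchymal samples, with an adjusted p of 1.91e-06, and 0.08 ± 0.23 at day 3 over day 1, with an adjusted p of 0.949. The array B probe set thus had the same order of groups as the array A probe set, an early gain and overlapping day 1 and day 3 values. Within the scan batches that held both groups the day 1 change was 2.99 on array A (1 day 1 sample, 2 mesenchymal samples) and 3.15 on array B (3 day 1 samples, 2 mesenchymal samples).

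Promoter windows from RefSeq (GRCm38.p6, 250 bases before to 50 after a start, printed 5' to 3' on the gene's strand) were matched for 5 of the 6 genes, giving 6 windows, and none was matched for Col9a3. Col9a1 has 2 windows, since the gene is known to start its transcripts at alternative sites. Both are shown because its signals rose early. The letters searched on both strands were ACAATG and ACAAAG, which resemble the core that SOX proteins bind, TATAAA, and GGGCGG, the letters of a GC box, and no 2 of these motifs overlapped. None of the 4 is in either Col9a1 window, so no letters are in capitals.

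Col9a1 first window promoter, chr1:24177360-24177659 (+ strand): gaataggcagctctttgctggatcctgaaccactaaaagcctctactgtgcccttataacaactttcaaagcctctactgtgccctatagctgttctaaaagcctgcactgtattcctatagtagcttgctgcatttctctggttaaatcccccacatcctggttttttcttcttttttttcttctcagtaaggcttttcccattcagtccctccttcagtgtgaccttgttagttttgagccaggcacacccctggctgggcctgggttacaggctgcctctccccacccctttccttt
Col9a1 second window promoter, chr1:24194953-24195252 (+ strand): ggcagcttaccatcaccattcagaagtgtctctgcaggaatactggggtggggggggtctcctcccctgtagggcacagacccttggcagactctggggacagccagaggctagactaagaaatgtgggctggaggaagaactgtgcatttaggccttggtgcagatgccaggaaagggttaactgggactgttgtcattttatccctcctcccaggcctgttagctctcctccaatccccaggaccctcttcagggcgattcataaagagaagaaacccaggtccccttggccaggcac

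Neither ACAATG nor ACAAAG is in any of the 6 collagen windows, while 12.6% and 18.7% of 32851 RefSeq windows of the same length hold them. This says only that these letters are not in the windows. The median GC content was 60.3% over the 6 windows and 52.7% over all windows.

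Col9a2, encoding the alpha 2 chain, has 1 probe set (98027_at). Its signal was 871, 391 and 350.1 in mesenchymal samples, 1728, 2287 and 2771 at day 1, and 2668, 2588 and 3559 at day 3. The mesenchymal replicate 1 value was the highest of its group and still below every later value. Its log2 change came to 2.06 ± 0.29 at day 1 over mesenchymal samples (adjusted p = 0.00140), 0.38 ± 0.29 at day 3 over day 1 (adjusted p = 0.734) and 2.44 ± 0.29 at day 3 over mesenchymal samples (adjusted p = 0.000181).

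Col9a2 was the collagen IX gene whose calls depended on the scan batch. A fit with scan batch as a block gave a change of 1.48 ± 0.39 at day 1 over mesenchymal samples (adjusted p = 0.0861) and 1.68 ± 0.48 at day 3 over mesenchymal samples (adjusted p = 0.0835). On array A only day 1 replicate 1 shared a scan batch with mesenchymal samples, the mesenchymal replicates 1 and 3, so the blocked value rests on that 1 day 1 array.

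Col9a3, encoding the alpha 3 chain, has 3 probe sets. On array A (102070_at) its signal was 725, 601 and 559 in mesenchymal samples, 3662, 3118 and 3544 at day 1, and 6753, 5959 and 8492 at day 3. The 3 groups did not overlap at either step. On the log2 scale it changed by 2.37 ± 0.17 at day 1 over mesenchymal samples (adjusted p = 7.13e-06) and 1.02 ± 0.17 at day 3 over day 1 (adjusted p = 0.0102). Without day 1 replicate 3 the adjusted p of the second step was 0.0647, with a change of 0.95. Within scan batch the second step was 1.06 (3 day 3 samples, 2 day 1 samples).

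On array C (167372_f_at) Col9a3 had mesenchymal signals of 264, 179 and 245, day 1 signals of 4886, 4404 and 2936, and day 3 signals of 8745, 8263 and 7140. Again no groups overlapped. The log2 change was 3.87 ± 0.27 at day 1 over mesenchymal samples (adjusted p = 8.42e-07) and 4.87 ± 0.27 at day 3 over mesenchymal samples (adjusted p = 2.95e-08), the largest among the collagen probe sets tested. The mesenchymal mean of 229 was close to the filter, so these sizes depend on the pseudocount. They were 4.05 and 5.05 with a pseudocount of 16, and 3.29 and 4.27 with one of 200. At day 3 over day 1 it was 1.00 ± 0.27 with an adjusted p of 0.0971, and 0.00463 with the replicate number as a block in the day 1 and day 3 samples alone. Within the 1 scan batch that held all 3 groups on array C, the changes were 4.14 at day 1 and 5.14 at day 3 over the 1 mesenchymal sample there.

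The Col9a3 probe set that stayed below the filter (162103_i_at) went the other way. Its signal was 165, 238 and 99.9 in mesenchymal samples, 51.3, 13.5 and 54.6 at day 1, and 11.9, 70.1 and 93.2 at day 3. Both later groups lay below every mesenchymal value. It was not tested, and the reason for the disagreement with the other Col9a3 probe sets was not tested.

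For each collagen XI probe set the estimate was larger for the second step than for the first in the fit of all 9 samples. For Col11a1 this order did not hold in every alternative setting, where the second step minus the first ranged from -0.45 to 0.94. Col11a1, encoding the alpha 1 chain of collagen XI, has 1 probe set (100481_at), with a signal of 241, 36.8 and 268 in mesenchymal samples, 841, 646 and 692 at day 1, and 2986, 2569 and 6639 at day 3. Each group lay above the one before it with no overlap, and day 3 replicate 4, which also had a high 18S control, was the highest value. The log2 change was 1.95 ± 0.45 at day 1 over mesenchymal samples (adjusted p = 0.0293), 2.28 ± 0.45 at day 3 over day 1 (adjusted p = 0.0255) and 4.23 ± 0.45 at day 3 over mesenchymal samples (adjusted p = 7.55e-05). The mesenchymal mean of 182 was below the filter, so the changes over mesenchymal samples depend on the pseudocount of 50. Over the whole course, day 3 over mesenchymal samples, the change was 4.57 with a pseudocount of 16 and 3.42 with one of 200, and at day 1 over mesenchymal samples it was 2.23 and 1.34.

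The 2 single steps of Col11a1 lost their calls more often than its change over the whole course, which passed in all 21 alternatives. The day 1 call over mesenchymal samples was lost without mesenchymal replicate 3 (adjusted p = 0.0611) and without day 1 replicates 1, 3 or 4 (0.111, 0.0821 and 0.0634), and when scan batch was blocked (2.49 ± 0.66, adjusted p = 0.0884). The day 3 call over day 1 was lost without day 1 replicates 1, 3 or 4 (0.0745, 0.106 and 0.0859) and without day 3 replicates 1 or 4 (0.0742 and 0.0912), and with a pseudocount of 16 (2.34 ± 0.55, adjusted p = 0.0634). Without a trend in the limma fit both calls were lost (adjusted p = 0.0615 for the first step and 0.0678 for the second). The same held with chip lot as a block (0.0859 and 0.0524). Within scan batch the second step was 2.39 (3 day 3 samples, 2 day 1 samples).

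Col11a2, encoding the alpha 2 chain of collagen XI, was the only one of the 6 genes with no call at day 1 over mesenchymal samples in the fit of all 9 samples. On array A (103616_at) its signal was 103, 91.0 and 27.9 in mesenchymal samples, 188, 77.9 and 353 at day 1, and 1064, 739 and 1112 at day 3. The day 1 and mesenchymal ranges overlapped, and every day 3 value lay above every earlier one. In log2 terms the change was 0.96 ± 0.41 at day 1 over mesenchymal samples (adjusted p = 0.231), 2.13 ± 0.41 at day 3 over day 1 (adjusted p = 0.0208) and 3.08 ± 0.41 at day 3 over mesenchymal samples (adjusted p = 0.000381). The mesenchymal mean was 73.9, below the filter, and the last of these changes was 3.56 with a pseudocount of 16 and 2.09 with one of 200.

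The day 3 call of this Col11a2 probe set over day 1 was lost without day 1 replicates 1 or 3 (adjusted p = 0.0759 and 0.0817), without day 3 replicates 1, 3 or 4 (0.111, 0.0604 and 0.0825) and with the replicate number as a block in all 9 samples (0.0518). That call was also lost with chip lot as a block (0.0510). Within scan batch the second step was 2.15 (3 day 3 samples, 2 day 1 samples). At day 3 over mesenchymal samples blocking on scan batch gave a change of 2.84 ± 0.73 (adjusted p = 0.0552). Blocking on chip lot gave an adjusted p of 0.0551 there.

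On array C (134879_at) Col11a2 had mesenchymal signals of 497, 187 and 937, day 1 signals of 731, 635 and 335, and day 3 signals of 1647, 973 and 2121. The mesenchymal samples spanned the whole day 1 range, and every day 3 value lay above every earlier one. In log2 terms the change was 0.23 ± 0.49 at day 1 over mesenchymal samples (adjusted p = 0.852), 1.40 ± 0.49 at day 3 over day 1 (adjusted p = 0.243) and 1.63 ± 0.49 at day 3 over mesenchymal samples (adjusted p = 0.0460). The last call was lost without mesenchymal replicates 1 or 3 (adjusted p = 0.0809 and 0.176, the change being 1.08 without replicate 3), without day 1 replicates 1 or 3 (0.0591 and 0.0595) and without day 3 replicates 1 or 4 (0.134 and 0.134). That call was also lost with a pseudocount of 16 (0.0510), with no filter (0.0849), without a trend in the limma fit (0.0854) and with only the 2 groups fitted (0.0624). Within the scan batch that held all groups the day 3 change was 2.71 over 1 mesenchymal sample.

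The windows of both collagen XI genes are shown because their second step had the larger estimate in the fit of all 9 samples, an order that reversed for Col11a1 in some alternatives. Capitals mark GGGCGG, its reverse complement CCGCCC, and TATAAA. Col11a1 holds GGGCGG at 2 places. Col11a2 holds CCGCCC at 2 places and is the only one of the 6 windows with TATAAA, at position -143 from the start, a motif in 13.6% of all windows. GGGCGG on either strand is in 4 of the 6 windows, those of Col9a2, Col11a1, Col11a2 and Col27a1, and in 35.7% of all windows.

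Col11a1 promoter, chr3:114030290-114030589 (+ strand): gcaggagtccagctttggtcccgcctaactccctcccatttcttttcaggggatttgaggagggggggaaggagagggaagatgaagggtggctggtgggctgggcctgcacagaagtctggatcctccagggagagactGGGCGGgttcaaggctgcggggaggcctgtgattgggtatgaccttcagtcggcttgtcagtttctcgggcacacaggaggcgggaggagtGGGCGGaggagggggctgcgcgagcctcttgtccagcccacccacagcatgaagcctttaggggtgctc
Col11a2 promoter, chr17:34038888-34039187 (+ strand): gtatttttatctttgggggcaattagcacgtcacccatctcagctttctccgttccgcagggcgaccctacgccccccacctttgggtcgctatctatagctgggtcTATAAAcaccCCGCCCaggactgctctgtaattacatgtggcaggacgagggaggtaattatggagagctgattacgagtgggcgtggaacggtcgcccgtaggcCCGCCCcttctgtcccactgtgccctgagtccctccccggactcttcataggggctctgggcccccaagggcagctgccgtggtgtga

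Collagen XXVII rose by day 1 on both of its probe sets. Col27a1 has 2 probe sets on array B. The first (115210_at) had a signal of 94.1, 115 and 317 in mesenchymal samples, 1319, 830 and 1011 at day 1, and 1685, 1989 and 2127 at day 3. The groups did not overlap at either step, and the mesenchymal mean of 175 was below the filter. Its log2 change came to 2.40 ± 0.32 at day 1 over mesenchymal samples (adjusted p = 0.000428) and 3.26 ± 0.32 at day 3 over mesenchymal samples (adjusted p = 1.18e-05). At day 3 over day 1 it was 0.86 ± 0.32 (adjusted p = 0.288), and 0.0239 was the adjusted p with the replicate number as a block in the day 1 and day 3 samples alone.

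The second (116181_at) had a signal of 258, 295 and 134 in mesenchymal samples, 1148, 1062 and 862 at day 1, and 1200, 1444 and 1814 at day 3. Here too the groups did not overlap. The log2 change was 1.98 ± 0.27 at day 1 over mesenchymal samples (adjusted p = 0.000536), 0.51 ± 0.27 at day 3 over day 1 (adjusted p = 0.562) and 2.49 ± 0.27 at day 3 over mesenchymal samples (adjusted p = 3.34e-05). Within scan batch the day 1 changes of the 2 Col27a1 probe sets were 2.82 and 1.71 (3 day 1 samples, 2 mesenchymal samples). On array B all day 3 samples lay in a scan batch of their own, so for Col27a1 and for the array B probe set of Col9a1 scan batch and day cannot be told apart at day 3. On array A no day 3 sample shared a scan batch with a mesenchymal sample, so its day 3 changes over mesenchymal samples are linked across batches only through day 1 samples.

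Counted by overlap, 8 of the 11 collagen probe sets had every day 1 value above every mesenchymal value, against 11.8% of all tested probe sets. From day 1 to day 3, 7 of 11 were higher with no overlap, against 9.04% of all tested. At day 3 over mesenchymal samples 10 of 11 were higher with no overlap, against 13.3% of all tested. The 11 include the untested Col9a3 probe set, which was lower with no overlap in both comparisons with mesenchymal samples. They also include the 3 that entered the test only through their later groups, which favours a higher later group.

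**Figure D2:**
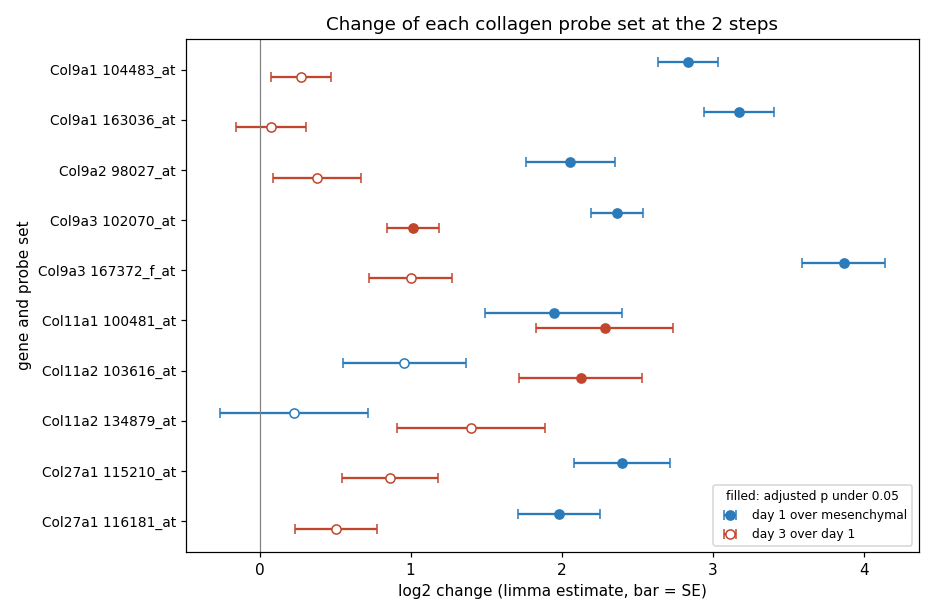
Log2 change of the 10 tested collagen probe sets at the 2 steps, day 1 over mesenchymal samples and day 3 over day 1, as limma estimates with their standard errors (n = 3 per group). Filled points have an adjusted p under 0.05. Col9a1 lies at 2.84 and 3.17 for the first step and near 0 for the second, while the 2 Col11a2 probe sets have the larger value at the second step.

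The size of the 2 steps was compared within each probe set as the second step minus the first. It was negative, meaning a larger first step, and passed the threshold for 3 collagen probe sets, against 0.803% of all tested probe sets called in that direction. These were both Col9a1 probe sets, at -2.56 ± 0.34 (104483_at, adjusted p = 0.00341) and -3.10 ± 0.40 (163036_at, adjusted p = 0.00145), and Col9a3 on array C, at -2.87 ± 0.48 (adjusted p = 0.00603). The last call was lost without day 1 replicates 1 or 3 (adjusted p = 0.0872 and 0.0623). Col9a3 on array A was at -1.35 ± 0.30, with an adjusted p of 0.0542.

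Neither collagen XI gene had a call for unequal steps. The difference was 0.34 ± 0.79 for Col11a1 (adjusted p = 0.935) and 1.17 ± 0.70 and 1.17 ± 0.85 for the Col11a2 probe sets (adjusted p = 0.629 and 0.700). It was -1.68 ± 0.51 for Col9a2 (adjusted p = 0.192), and -1.54 ± 0.56 and -1.48 ± 0.47 for Col27a1 (adjusted p = 0.290 and 0.204). A larger second step was thus not shown for collagen XI by this test.

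Changes of different genes were set against each other within the same RNA samples on array A, as differences of log2 changes from Col9a1. Among the genes compared, Col9a1 had the largest first step (2.84) and the smallest second step (0.27). The direction of every difference therefore follows from taking Col9a1 as the reference, and only the sizes are described here. At day 3 over day 1 the change of Col11a1 exceeded that of Col9a1 by 2.01, that of Col11a2 by 1.85, that of Col9a3 by 0.74 and that of Col9a2 by 0.11. For the first 3 of these genes the per-sample differences did not overlap between day 3 and day 1. At day 1 over mesenchymal samples the difference from Col9a1 was -1.88 for Col11a2 and -0.47 for Col9a3, with no overlap, and -0.89 for Col11a1 and -0.78 for Col9a2, with overlap. The two-sided exact permutation p was 0.1 for each of the 5 differences without overlap, the smallest that 3 against 3 samples allow, and 0.16 after adjustment over 8 such tests, so none could pass 0.05. How often such differences lack overlap among all probe sets was not computed.

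Across the 9 samples, the log2 signals of the 21 pairs of collagen IX and XXVII probe sets correlated at Pearson r of 0.85 to 0.98. The 24 pairs with a collagen XI probe set were at 0.43 to 0.92. The lowest values involve Col11a2 on array C (134879_at), at 0.43 to 0.68 with the tested collagen IX and XXVII probe sets. It was at 0.60 with the other Col11a2 probe set. With the same collagen IX and XXVII probe sets Col11a1 was at 0.75 to 0.92, and Col11a2 on array A at 0.67 to 0.87. The samples fall into 3 groups, so these values describe the group pattern, and probe sets of 1 array type also share the array.

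Other genes were ranked by their likeness to the collagens, as Pearson r over the 9 samples with the mean of the standardised log2 signals of the 10 tested collagen probe sets, among 19395 probe sets with 1 gene. Closest were Rhoc, a small GTPase (0.993), Matn4, a matrilin of the cartilage matrix (0.992), Acta2, smooth muscle actin (0.991), Slc38a4, an amino acid transporter (0.991), Islr (0.990) and Mgp, the matrix Gla protein, an inhibitor of calcification (0.990). Rhoc averaged 1158 in mesenchymal, 2968 in day 1 and 4700.0 in day 3 samples. Mgp averaged 37.2, 767 and 3808 at the same stages.

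By single gene, the closest to Col9a1 were Wwp2, a ubiquitin ligase that binds SOX9 (0.989), and Matn4 (0.987). For Col9a3 they were Matn4 (0.995) and Rgs5 (0.994), and for Col9a2 Gpr153 (0.984) and Lysmd4 (0.977). Col11a1 was closest to Galnt10 (0.980) and Reck, an inhibitor of matrix metalloproteinases (0.976), Col11a2 to Abca3 (0.987) and Creg2 (0.986), and Col27a1 to Atl3 (0.994) and Tmed4 (0.994). The highest-ranked of so many candidates are close by selection, and the values carry no test.

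Genes that work with these collagens were counted in lists, with 1 probe set per gene. Over the 11223 genes tested, 4.78% rose and 1.37% fell at day 1 over mesenchymal samples, 1.78% rose and 0.677% fell at day 3 over day 1, and 9.04% rose and 5.05% fell at day 3 over mesenchymal samples. The median gene changed by -0.01, -0.05 and -0.05 on the log2 scale. By the same count, 5, 3 and 6 of the 6 collagen genes rose and none fell.

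Of 12 partners in the cartilage fibril and matrix, 9 were tested. At day 1 over mesenchymal samples 1 rose, at day 3 over day 1 6 rose, and at day 3 over mesenchymal samples 7 rose, with none falling and medians of 0.09, 1.58 and 1.86. Hapln1, Comp, Matn1, Matn3 and Dcn had a mean of at least 200 only at day 3. They entered the test only through that group, which favours a late rise in these counts and medians. Matn4 was the early one, at 203 ± 77.8 in mesenchymal, 5726 ± 963 in day 1 and 13982 ± 4263 in day 3 samples (SD, n = 3), although its second probe set (164328_f_at) was not called at day 1, with a change of 0.19. Acan, the aggregating proteoglycan aggrecan, changed by 0.57 ± 0.26 at day 1 over mesenchymal samples (adjusted p = 0.270) and by 1.83 ± 0.26 at day 3 over day 1 (adjusted p = 0.00355). Matn1, another matrilin, averaged 27.7, 25.7 and 1181 at the 3 stages and rose by 4.02 ± 0.34 at day 3 over day 1 (adjusted p = 7.05e-05), a size that depends on the pseudocount because the day 1 mean lies below the filter. The Col2a1 probe set, for the main cartilage collagen and a chain of collagen XI, averaged 126, 101 and 37.0 and was not tested. The reason for its low signal was not tested either, and 1 probe set below the filter does not show whether Col2a1 was absent or changed.

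Among other fibrillar and fibril-associated collagens, 9 of 13 were tested, and 2, 3 and 6 rose in the 3 comparisons, with none falling and medians of 0.30, 0.80 and 1.71. Col1a1, a chain of collagen I of bone and connective tissue, rose at both steps, by 2.36 ± 0.23 (adjusted p = 8.15e-05) and 1.69 ± 0.23 (adjusted p = 0.00243), while its second probe set was not called at day 1 (1.08, adjusted p = 0.0843). Col3a1, the chain of collagen III, changed by -0.70 ± 0.25 at day 1 over mesenchymal samples (adjusted p = 0.146) and rose by 2.41 ± 0.25 at day 3 over day 1 (adjusted p = 0.000305), as did 1 of its other 2 probe sets. Col16a1 rose by 1.98 ± 0.26 at day 3 over day 1 (adjusted p = 0.000985). Col5a1, a chain close to Col11a1 in kind, changed by 0.30 at day 1 over mesenchymal samples on its representative probe set (adjusted p = 0.439), while 2 of its other 3 probe sets rose.

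Of the SOX trio and SOX9 cofactors, 6 of 8 were tested. At day 1 over mesenchymal samples 3 rose, at day 3 over day 1 1 fell and none rose, and at day 3 over mesenchymal samples 3 rose, with medians of 0.95, -0.32 and 0.44. Sox9 averaged 2400 ± 317 in mesenchymal, 6981 ± 1261 in day 1 and 3774 ± 552 in day 3 samples (SD, n = 3). It rose by 1.51 ± 0.19 at day 1 (adjusted p = 0.000263) and its second step was -0.87 ± 0.19 (adjusted p = 0.0321), but its other 4 probe sets were not called at either step. Sox6 rose by 2.23 ± 0.25 at day 1 (adjusted p = 0.000248) and then changed by -0.98 ± 0.25 (adjusted p = 0.0935), from a mesenchymal mean of 80.1 that lies below the filter. Its array B probe set (107282_at), with means of 367, 4420 and 1868, rose by 3.48 (adjusted p = 1.02e-06) and its second step was -1.22 (adjusted p = 0.0175). Wwp2 rose by 1.81 ± 0.20 (adjusted p = 0.000178) and then changed by 0.05 ± 0.20. Sox5 was below the filter, with means of 101, 78.9 and 61.4.

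Of 31 genes for collagen folding, processing and export, 24 were tested, and 8, 9 and 16 rose in the 3 comparisons, while 1, Bmp1, a protease that trims collagen ends, fell at day 3 over mesenchymal samples on its representative probe set (-0.66, adjusted p = 0.0296). The medians were 0.75, 0.53 and 1.27. Another Bmp1 probe set (92701_at) rose there by 1.51 (adjusted p = 0.000128), so the direction of Bmp1 is not settled. Lox, which crosslinks collagen, rose by 2.76 ± 0.39 (adjusted p = 0.00143) and 2.67 ± 0.39 (adjusted p = 0.00455) at the 2 steps, and its mesenchymal mean of 64.8 makes the size of the first depend on the pseudocount. P3h3, a prolyl hydroxylase, rose by 1.84 ± 0.16 (adjusted p = 3.66e-05) and 0.79 ± 0.16 (adjusted p = 0.0310), and Plod1, a lysyl hydroxylase, by 1.55 ± 0.21 at day 1 (adjusted p = 0.000425). Plod1 then changed by 0.75 ± 0.21 (adjusted p = 0.106), and its other 4 tested probe sets were not called in any comparison.

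Of 7 collagen receptor genes 6 were tested, and 1, 0 and 2 rose in the 3 comparisons. The medians were 0.24, 0.72 and 0.78. Itga11, an integrin chain for fibrillar collagen, rose by 1.75 ± 0.35 at day 1 over mesenchymal samples (adjusted p = 0.00947). Ddr1, a collagen-binding receptor kinase, and Itgb1, the common beta chain, rose at day 3 over mesenchymal samples, by 1.56 ± 0.26 (adjusted p = 0.00227) and 1.14 ± 0.27 (adjusted p = 0.0169). A second Itgb1 probe set on array A (100124_r_at) also rose there, by 1.15 (adjusted p = 0.000484), while another, on array C, was not called (-0.22, adjusted p = 0.862).

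**Figure D3:**
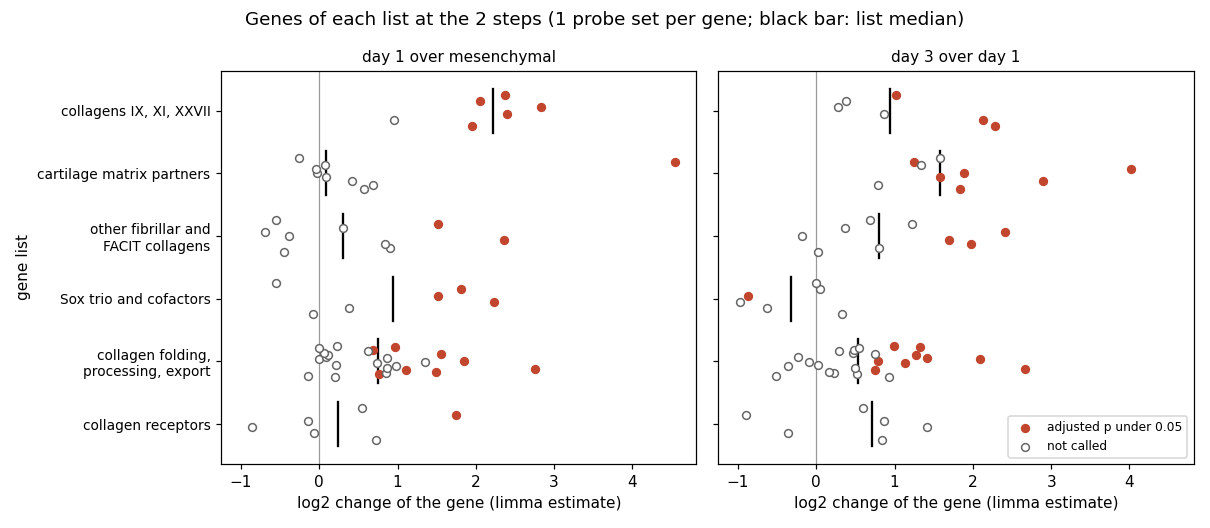
Log2 change of each tested gene (1 probe set per gene) at day 1 over mesenchymal samples (left) and at day 3 over day 1 (right), by list, with list medians as black bars and filled points for an adjusted p under 0.05. The collagen genes have a median of 2.21 at the first step, while the matrix partners have 0.09 there and 1.58 at the second. Some genes of both lists entered the test only through a later group, which favours a rise.

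Markers of other cells also moved over the course, and their part in the collagen changes was not tested. The summed signal of 7 fibroblast markers was 3797 to 4583 in mesenchymal samples, 7049 to 8092 at day 1 and 18565 to 21947 at day 3. Of the 5 fibroblast markers tested, 2, 3 and 4 rose in the 3 comparisons, S100a4 and Thy1 were below the filter, and Col1a1 and Col3a1 are also in the list of other collagens. The sum of 5 erythroid markers was 115735 to 253538 in mesenchymal samples, 8868 to 116385 at day 1 and 6379 to 19560 at day 3, and all 5 fell at day 3 over mesenchymal samples. That of 6 endothelial markers was 1911 to 2169, 362 to 446 and 228 to 448 at the 3 stages, with Tek and Tie1 below the filter, and that of 6 macrophage markers was 861 to 1980, 1194 to 1801 and 2075 to 2482, with Adgre1 below it. Of 4 endothelial markers tested, 2 fell at day 1 and 3 at day 3 over mesenchymal samples. Of 5 macrophage markers tested, 1, 1 and 2 rose in the 3 comparisons, C1qa by 1.94 at day 1 (adjusted p = 0.000652) and 2.83 at day 3 (adjusted p = 1.37e-05) over mesenchymal samples, and Lyz2 by 2.92 at day 3 (adjusted p = 5.84e-05). A second C1qb probe set (96020_at) also rose, by 1.54 (adjusted p = 0.00811) and 2.11 (adjusted p = 0.000455), while the one in the sum was not called. Of skeletal muscle markers Myf5, Myh3 and Des, and of epithelial markers Krt5, Krt14 and Krt8, were below the filter in every group. For Epcam the representative probe set was below it, but 2 on array C averaged 2573, 1780 and 2188 (170480_at) and 2074, 1891 and 1443 (134369_i_at) at the 3 stages and were not called. None of the other representative probe sets in these 2 lists was called in any comparison.

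**Figure D4:**
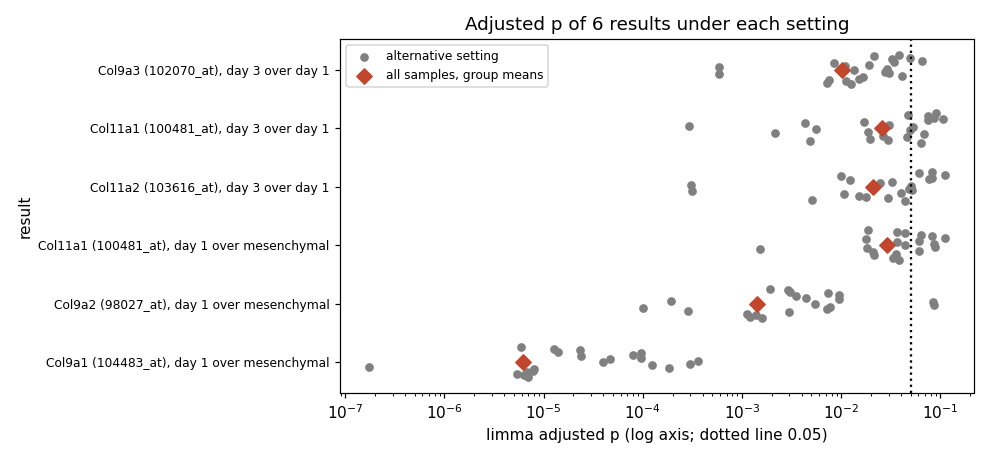
Adjusted p (log axis) of 6 collagen results under every alternative setting (grey) and in the fit of all 9 samples with group means (red), with a dotted line at 0.05. All points of Col9a1 at day 1 over mesenchymal samples lie left of the line, with a highest value of 0.000357, while points of Col11a1 and Col11a2 at day 3 over day 1 lie on both sides, with highest values of 0.106 and 0.111.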

How the data were processed

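Total RNA of 9 samples was measured on 3 Affymetrix MG_U74 array types. The deposited values are 1 MAS5 signal per probe set and array, a linear intensity made by the authors with MAS5 (version not given in the sources used here), per the submitters' processing notes. Deposited arrays had 2% trimmed means of 1500.27 to 1500.91. Each array was rescaled to 500, 66 control probe sets were left out, and log2(signal + 50) was fitted for 23545 probe sets with a group mean of at least 200 in limma 3.58.1 (R 4.3.3; lmFit, eBayes with a trend, 9 samples per array type, group means). Benjamini-Hochberg adjustment ran over all 3 array types at 0.05. The number of arrays limits the precision.

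Gene names came from GEO's platform annotation, updated through Entrez identifiers: 29131 probe sets had 1 gene, 724 several and 6846 none. Every collagen probe set is reported. From each other list the 3 genes with the smallest moderated F p are named, plus Col2a1, Sox9, Sox5, Sox6, Acan, Col1a1 and Col5a1, and the 6 genes most like the collagens and 2 per collagen gene. Bmp1, the single markers Cnmd, C1qa, Lyz2, C1qb and Epcam, and the other probe sets of listed genes were named after their values were seen. A gene is represented by array A before B before C, then the highest mean signal. The collagens and lists were chosen with earlier results of these data known.

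Scan batch and chip lot came from the experiment records. Replicate numbers come from the titles. Same-numbered samples correlated in their deviations from group means at 0.11, 0.13 and 0.25 between day 3 and day 1. They correlated at -0.20 to 0.06 against mesenchymal samples, so the numbers do not pair those. For day 1 and day 3 the numbers were taken as pairs from these weak values and not from the labels. Only 5 of 9 samples correlated best with their own number, so the pairing is uncertain. Alternatives were 2 other pseudocounts, filters and scalings, eBayes without trend, array weights, only the 2 groups compared, the replicate number, scan batch or chip lot as a block, and leaving out each sample. The chip lot, and the replicate block with only day 1 and day 3 fitted, were chosen after seeing the data.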

Additional observations from a re-analysis of the deposited data

How the results depend on the processing

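Of 840 repeats of single collagen results under an alternative, 785 kept their side of the threshold. A further 42 kept the direction but no longer passed, 13 newly passed, and 0 called values changed sign. Some estimates without a call did change sign. Col11a2 on array C at day 1 over mesenchymal samples was at 0.23 and went as low as -0.32. The calls of both Col9a1 probe sets, of both Col27a1 probe sets and of the 2 tested Col9a3 probe sets over mesenchymal samples held in all 21 alternatives, while Col11a2 on array C at day 3 held in 11. On array B the scan batch could enter the day 3 comparisons only as a random block. That setting does not separate batch from day there, so it is no check of the day 3 calls on array B. With chip lot as a block 1 collagen probe set rose at day 3 over day 1, and 632 and 1129 of all probe sets were called at day 1 and at day 3 over mesenchymal samples. With scan batch as a block these counts were 615 and 1143, where 1128 and 2489 were called without it. Array weights gave 2005, 1131 and 4246 called in the 3 comparisons, and 6 collagen and 754 of all probe sets with unequal steps. Without a trend 161 of all probe sets had unequal steps, against 256. The cause of these shifts was not tested.

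The replicate number as a block in the day 1 and day 3 samples alone, which the data pair only weakly, gave 5 collagen probe sets and 1153 of all at day 3 over day 1. As a block in all 9 samples it called 8, 2 and 10 collagen probe sets and 911, 258 and 1998 of all in the 3 comparisons. The only collagen call it lost was that of Col11a2 on array A at day 3 over day 1 (0.0518), and 5 of 9 samples correlated best with their own number.

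Leaving out 1 sample at a time gave 7 to 8, 0 to 3 and 9 to 10 collagen probe sets called in the 3 comparisons and 2 to 5 with unequal steps. Over all probe sets the ranges were 555 to 1242, 167 to 441, 1457 to 2656 and 78 to 300. The collagen count at day 3 over day 1 was 0 when day 1 replicate 3 was left out, and 1 when day 1 replicate 1, day 3 replicate 1 or day 3 replicate 4 was. Unequal steps reached 5 without mesenchymal replicate 1. Signals below 200 leave the mesenchymal levels of Col11a1, of Col11a2 on array A and of 1 Col27a1 probe set poorly measured.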
